A study of Mus musculus with 21 samples.

Results

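The clustered protocadherins are neural cell-surface adhesion proteins of the cadherin superfamily, encoded by the alpha, beta and gamma gene clusters that lie in tandem on mouse chromosome 18. Members were taken by gene symbol (Pcdha, Pcdhac, Pcdhb, Pcdhga, Pcdhgb and Pcdhgc followed by a number), which gave 58 rows, 14 alpha, 22 beta and 22 gamma, of the 42760 rows in the Peril and Fendrr tables and of the 40770 rows in the linc-Brn1b table. The symbol rule itself used no measured value, but the members were chosen with earlier results of these data known. The study compared tissue of mice lacking a long intergenic noncoding RNA (lincRNA) with wild-type (WT) tissue by RNA sequencing. In each strain the lincRNA gene had been replaced by a lacZ reporter with a neomycin selection cassette, in hybrid embryonic stem cells from a C57BL/6N father and a mother of another inbred strain, and the mice had been crossed once to C57BL/6J. The 10 groups were homozygous knockout (KO) and WT whole brain of the Peril strain at E18.5 (embryonic day), KO and WT lung of the Fendrr strain at E14.5, and KO and WT tissue of the linc-Brn1b strain as telencephalon at E13.5, telencephalon at E15.5 and whole brain at postnatal day (P) 7. In the labels these strains go by a neighbouring gene, Sox2 for Peril and Foxf1a for Fendrr. Each group had 2 libraries, except the linc-Brn1b KO at E15.5, to which the labels give 3 and the study's results text 2.

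Each alpha and gamma gene is a variable exon with its own promoter, which is spliced to constant exons that all members of its cluster share, whereas beta genes are variable exons with no constant exon. A neuron uses a few of the alternate alpha, beta, gamma A and gamma B promoters, while the C-type genes at the ends of the alpha and gamma clusters (Pcdhac1, Pcdhac2, Pcdhgc3, Pcdhgc4 and Pcdhgc5) are used more uniformly. The proteins bind others of the same identity across cell contacts and are known for dendrite self-avoidance, the spacing of serotonergic axons and the survival of interneurons. Bulk tissue averages over cells, so the levels below cannot tell more cells that use a promoter from more RNA per cell.

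Every value is a level in FPKM, which counts sequenced fragments scaled to transcript length and library size, and each table holds 1 pooled value per group, so the spread between its libraries cannot be computed from them and no SD or test is given here. The tables also carry p-values and q-values of the authors' own comparisons, which were left unused. The depth of the libraries is unknown, because these tables hold no read counts. Differences are between 2 groups in log2(FPKM + 0.1), which understates the change of low genes. A feature entered a comparison when its mean over both groups was at least 0.5 FPKM, and a difference of at least 0.5, or 1.41-fold, in either direction is called past the fold. That is a rule of size and not of significance. Levels in different tables came from separate normalizations, so the lung values are set beside the brain values without a comparison between the tables.

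In each table, 57 of the 58 members carried the same locus, chromosome 18 (mm9) from 37079778 to 38001526 in the Peril and Fendrr tables and from 37089939 to 38001526 in the linc-Brn1b table. The rows share that locus with 9 other rows in the Peril and Fendrr tables and with 8 in the linc-Brn1b table, among them Taf7, Slc25a2 and several noncoding transcripts. Reads from the constant exons fit many of these rows and were divided among them by the quantification, so the level of a member of the alpha or gamma cluster is an estimate that depends on that division. Another row at the locus, the cDNA clone mKIAA0327, had 2.00 FPKM in the Peril group labelled WT and 0.933 in the group labelled KO. In the linc-Brn1b WT and KO it had 0.166 and 0.635 at E13.5, 0.621 and 0.504 at E15.5, and 2.23 and 3.21 at P7. In WT and KO lung it had 0.367 and 0.462. In the GENCODE annotation of mm9, 22 beta genes have intervals of their own, Pcdhb20 is listed as a pseudogene, and the alpha and gamma genes are folded into a few gene records. The remaining row, named Pcdhb11, lies in the tables on chromosome 15 from 82519180 to 82520929, where GENCODE has the cytochrome P450 gene Cyp2d37-ps, while GENCODE places Pcdhb11 on chromosome 18 from 37581072 to 37584686. That row was listed at 0 in all 10 groups, which says nothing of Pcdhb11 itself.

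The targeted lincRNAs were low in the KO groups in 2 of the 3 tables. The row at linc-Brn1b had 1.60 FPKM in the WT telencephalon of E13.5, 2.50 in that of E15.5 and 0.799 in the brain of P7, and was listed at 0 in each KO, and the row at Fendrr had 38.4 FPKM in WT lung and 0.0450 in KO lung. The row at Peril went against its label, with 0.0109 FPKM in the WT and 4.65 in the KO. The study itself reported loss of Peril in mutant E18.5 brain by RT-PCR. Which value is WT and which KO was assumed for this strain from the order in the linc-Brn1b table. The Peril groups are therefore called the libraries labelled WT and KO. Genotype and sex could not be told apart in any comparison. Over Uty, Kdm5d, Ddx3y and Eif2s3y, 4 genes of the Y chromosome, the level summed to between 0 and 0.0357 FPKM in 1 group of every pair and to between 21.0 and 49.2 in the other, with the high group WT in the Fendrr lung and at E13.5, and KO in the other pairs. The tissue labels matched the markers. The neuron list summed to between 1426 and 3648 FPKM in the brain groups and to 31.6 and 34.2 in WT and KO lung, and the lung epithelium list summed to 1045 and 1062 in lung and to between 2.88 and 25.2 in brain.

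Nearly all members were detected in brain. At least 0.5 FPKM was reached by 55 of 58 members in both Peril groups, by 50 and 52 in WT and KO telencephalon at E13.5, by 54 in both genotypes at E15.5 and by 55 in both genotypes at P7. Pcdhb1, the first beta gene of the cluster, stayed at or under 0.163 FPKM in all 10 groups, and Pcdha8 at or under 0.388. Cuffdiff, the program that made the tables, gives each comparison a status, which was OK for 56 members in the Peril comparison and in the linc-Brn1b comparisons at E15.5 and P7, for 54 at E13.5 and for 37 in lung. NOTEST, its mark for too few reads to test, stood at Pcdhb1 in all 5 comparisons, also at Pcdha1 and Pcdha8 at E13.5, and at 20 members in lung. LOWDATA stood at the row named Pcdhb11 in all 5.

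**Figure D1:**
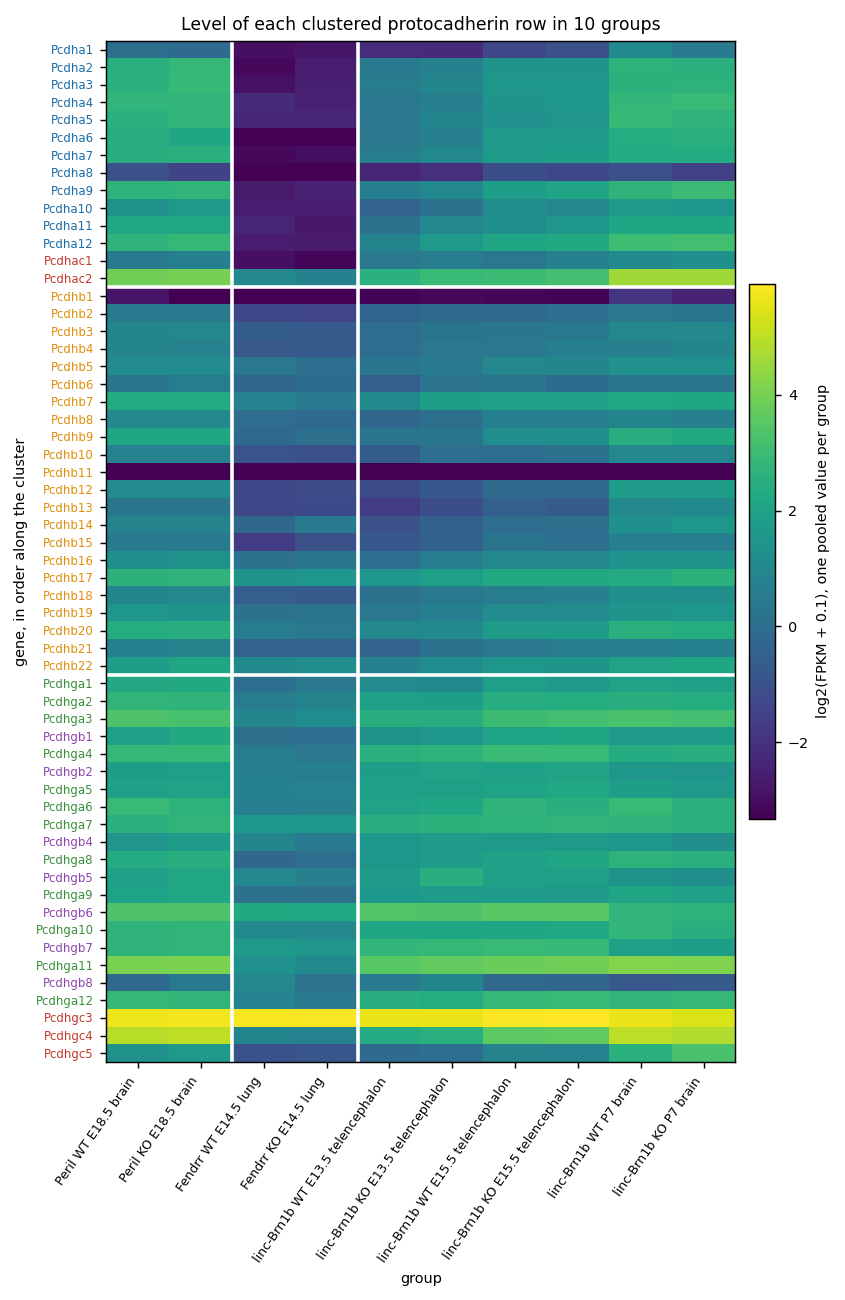
Level of each of the 58 members (rows, in their order along the cluster in RefSeq) in the 10 groups (columns), as log2(FPKM + 0.1) in colour with 1 pooled value per group. Names are coloured by class (blue for alternate alpha, orange for beta, green for gamma A, purple for gamma B, red for C-type), and white lines part the clusters and the 3 tables. The bright row near the bottom is Pcdhgc3, and the dark block at the upper middle is the alternate alpha genes in lung.

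Pcdhgc3, a C-type protein that inhibits Wnt signalling through Axin1 and shapes cortical dendrites, was the highest member in every group. It had 51.6 FPKM in the Peril libraries labelled WT and 53.5 in those labelled KO, 57.1 in WT lung and 58.1 in KO lung, 48.9 and 50.3 at E13.5, 57.9 and 60.1 at E15.5, and 49.8 and 42.2 at P7. Within each table its values for WT and KO were close, with the widest gap at P7. Pcdhgc4, which supports neuron survival, was second in the Peril brain at 30.0 and 32.2 FPKM and at P7 at 31.7 and 28.01. In lung it had 1.69 and 1.61, and in telencephalon at E13.5 it had 5.04 and 5.76. Pcdhac2, the C-type protein through which serotonergic axons space themselves, was the highest alpha member in all 10 groups, from 1.57 FPKM in KO lung to 24.0 in WT brain at P7. Pcdhac1, the other alpha C-type gene, stayed between 1.16 and 2.39 FPKM in the brain groups, with 0.0301 and 0.0101 in lung. Pcdhgc5, which is enriched at synapses late in development, ranged in brain from 0.826 at E13.5 to 9.53 at P7.

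Each class had its leading members. In brain Pcdhga11 was the highest gamma A gene, at 11.3 FPKM in WT at E13.5, 14.3 at E15.5, 18.03 at P7 and 16.7 in the Peril libraries labelled WT. Pcdhgb6 led gamma B, at 10.4, 11.6, 6.64 and 10.3 FPKM in the same groups, followed by Pcdhgb7 at 6.83, 7.47, 3.65 and 6.39. Pcdhb17 had the highest mean of the beta genes in all 3 tables, with Pcdhb7 next in the linc-Brn1b table, Pcdhb20 in the Peril table and Pcdhb22 in the Fendrr table. Pcdha12 had the highest mean of the alternate alpha genes in the linc-Brn1b and Peril tables. Among the 12 alternate alpha genes in the Peril libraries labelled WT, 9 lay between 4.53 (Pcdha11) and 6.59 FPKM (Pcdha4), and the others were Pcdha10 at 2.50, Pcdha1 at 0.962 and Pcdha8 at 0.388.

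By class, gamma carried most of the summed level. Gamma members made up 62.0% of the 321.9 FPKM summed over all members in the Peril libraries labelled WT, 78.2% of 182.1 FPKM in WT at E13.5, 70.9% of 253.2 FPKM at E15.5 and 57.7% of 333.3 FPKM at P7. Alpha members made up 22.4%, 10.8%, 15.3% and 26.1% in the same groups. Beta members made up between 10.97% and 16.3%. Pcdhgc3 alone accounted for 26.8% of the sum in WT at E13.5 and for 14.9% at P7.

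**Figure D2:**
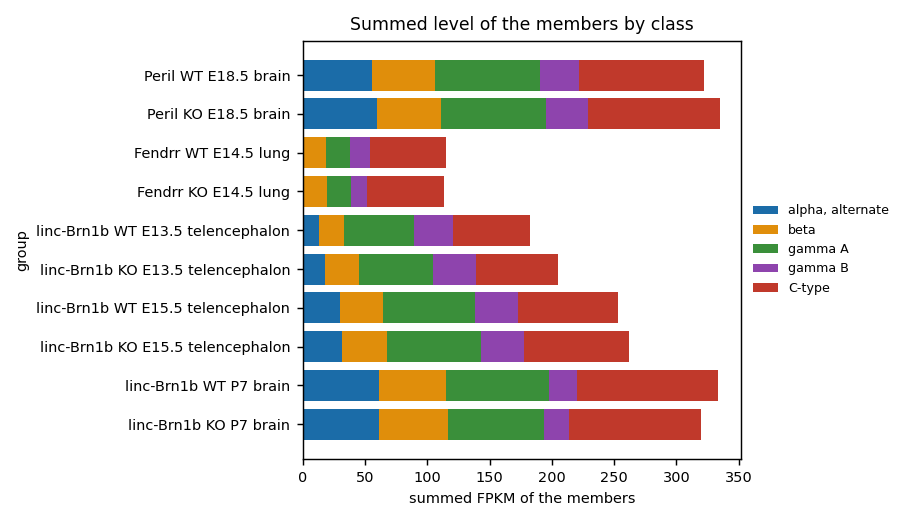
Summed FPKM of the members (horizontal axis, from 0) in each of the 10 groups, divided by class. The lung bars end at 115 and 113 FPKM with no visible alternate alpha part, and the brain bars end between 182.1 in WT at E13.5 and 335.3 in the Peril libraries labelled KO.

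In the Fendrr lung the alpha cluster was close to 0 apart from Pcdhac2. The 12 alternate alpha genes were each at or under 0.117 FPKM, with Pcdha6 and Pcdha8 listed at 0 in both genotypes, and together they made up 0.520% of the summed level in WT and 0.580% in KO. Pcdhac2 was the 1 alpha member above 0.5 FPKM, at 1.86 in WT and 1.57 in KO. Pcdhgc3 alone made up 49.8% of the summed level in WT and 51.2% in KO, beside other C-type genes at 1.69 and 1.61 (Pcdhgc4) and at 0.401 and 0.459 (Pcdhgc5). The gamma A genes lay between 0.739 and 2.75 FPKM in WT, the gamma B genes between 0.959 and 4.74 with Pcdhgb6 highest, and 15 of the 22 beta genes passed 0.5 FPKM, up to Pcdhb17 at 2.64. The autonomic neuron and glia list, which marks the nerves that lung contains, summed to 4.42 and 4.32 FPKM over 6 genes, and its part in these levels was not tested.

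The first question was whether the absence of a lincRNA changed the members. In the Peril E18.5 brain the groups differed little. Of the 55 members that passed the minimum, 1 was past the fold upward and 0 downward, beside 4.12% and 2.96% of all 16174 features that passed. The median difference of the members was 0.047 and that of all features 0.0064. Pcdhgb8, a gamma B gene, had the highest difference, from 0.787 FPKM in the libraries labelled WT to 1.23 in those labelled KO (difference 0.59). Pcdhb6 went from 1.06 to 1.37 (0.35) and Pcdhgb1 from 3.84 to 4.75 (0.30). At the other end Pcdha6 went from 5.24 to 4.22 (-0.31), Pcdhga6 from 7.40 to 6.19 (-0.25) and Pcdha1 from 0.962 to 0.833 (-0.19). Of the alternate alpha genes 8 of 11 had a difference above 0, and of the 5 C-type genes all 5 did, from 0.05 at Pcdhgc3 to 0.29 at Pcdhgc5. Over all features 51.5% lay above 0. Beside these values the choroid plexus list summed to 829.7 FPKM in the libraries labelled WT and 569.2 in those labelled KO over 4 genes, and the neural progenitor list to 238.5 and 191.5 over 6 genes, and their part in the differences was not tested. The neuron list summed to 3484 and 3590 FPKM.

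In the Fendrr E14.5 lung 37 members passed the minimum. Of these 1 was past the fold upward and 1 downward, beside 3.65% and 3.41% of 15673 features. Pcdhb14, a beta gene in the middle of its cluster, went from 0.777 FPKM in WT to 1.26 in KO (0.63), and Pcdhga1 from 0.929 to 1.21 (0.35) and Pcdhga3 from 1.80 to 2.17 (0.26) followed. Pcdhgb8 went from 1.95 FPKM in WT to 1.04 in KO (-0.85), the lowest difference in this tissue. Pcdhgb4 went from 1.80 to 1.31 (-0.43) and Pcdhga12 from 1.59 to 1.24 (-0.34). All 7 gamma B genes were below 0, with a median of -0.19 and a summed level of 15.9 FPKM in WT and 13.4 in KO. The 12 gamma A genes had 7 above 0, beside 50.2% of all features, and summed to 19.1 and 19.2 FPKM. In the Peril brain Pcdhgb8 was the highest member by the difference between the libraries labelled KO and WT. Which of those is KO was assumed, so its direction there is not established, and the difference between the 2 tissues was not tested. The cardiac muscle list summed to 146.8 FPKM in WT lung and 481.7 in KO lung, with all 5 genes past the fold upward, and the endothelial list to 272.9 and 219.7, with 0 of 5 genes past the fold, and their part was not tested.

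The linc-Brn1b telencephalon at E13.5 held the most members past the fold. Of the 52 that passed the minimum 9 were past the fold upward, or 17.3%, and 0 downward, beside 6.45% and 8.77% of 15142 features. Among features with a mean of 0.5 to 10 FPKM, a range chosen after the values were seen because most members lie in it, the shares were 10.7% and 8.04%, with 9 of 49 members upward and 0 downward. The members' median difference was 0.27 and that of all features 0.07, and 47 of 52 members lay above 0, beside 59.5% of all features. The spread between libraries is unknown. The upward count was 5 with a minimum mean of 1 FPKM, given without the share of all features at that minimum. With a pseudocount of 1 FPKM it was 3 of 52, beside 2.64% of all features.

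The 9 members were the alternate alpha genes Pcdha12 and Pcdha11, the beta genes Pcdhb7, Pcdhb6, Pcdhb10, Pcdhb14, Pcdhb16 and Pcdhb21, and the gamma B gene Pcdhgb5. Pcdha12 had 1.67 FPKM in WT and 2.99 in KO (0.80), Pcdha11 had 1.03 and 1.83 (0.77), and Pcdhb7 had 2.05 and 3.49 (0.74). The 6 others, named here after their values were seen, ranged from Pcdhb21 at 0.660 and 1.01 (0.55) to Pcdhb6 at 0.580 and 1.03 (0.74). Pcdhb14, at 0.390 in WT and 0.631 in KO, passed the minimum through the KO value, and such a gene had to differ to enter.

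By class the summed level of the alternate alpha and beta genes differed most at E13.5, and the difference between classes was not tested. All 10 alternate alpha genes that passed lay above 0, with differences from 0.27 at Pcdha4 to 0.80 at Pcdha12, and their sum over all 12 genes was 12.7 FPKM in WT and 17.9 in KO, a ratio of 1.41. All 18 beta genes that passed lay above 0, from 0.01 at Pcdhb9 to 0.74 at Pcdhb7, with sums of 20.0 and 27.0 FPKM, a ratio of 1.35. The 12 gamma A genes lay between -0.09 at Pcdhga12 and 0.21 at Pcdhga8, with sums of 56.9 and 59.8, a ratio of 1.05. The 7 gamma B genes lay between -0.04 at Pcdhgb6 and 0.67 at Pcdhgb5, with 6 above 0, a median of 0.19 and sums of 30.7 and 34.4, a ratio of 1.12. Pcdhga12 (5.58 and 5.22 FPKM), Pcdhga1 (2.09 and 1.98) and Pcdhga2 (3.67 and 3.48) had the lowest differences of all members. The C-type genes lay between 0.04 at Pcdhgc3 and 0.32 at Pcdhac2, which had 5.87 FPKM in WT and 7.35 in KO.

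Other lists differed between the same groups. The neuron list had 6 of 7 genes above 0 with a median of 0.30 and 0 past the fold, while its sum, which Tubb3 dominates, was 1510 FPKM in WT and 1426 in KO. The neural progenitor list summed to 925.8 and 890.1 FPKM, the endothelial list to 55.3 and 37.5, the microglia list to 12.9 and 8.83, and the erythroid list to 123.7 and 45.8. Higher in KO were the cerebellar and hindbrain list, at 5.47 and 8.67 with 2 of its 6 genes passing the minimum, and the choroid plexus list, at 161.8 and 204.5. What part these lists had in the members' values was not tested. Some genes are known to set the folding and silencing of the protocadherin clusters, such as the insulator protein Ctcf, the cohesin subunits and the methyltransferases. Of these 0 of 20 were past the fold, beside 6.45% of all features upward and 8.77% downward. Above 0 lay 17 of 20, beside 59.5% of all features, with a median of 0.16. Ctcf itself had a difference of 0.16.

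At E15.5 0 of 54 members were past the fold in either direction, beside 0.648% and 0.907% of 15113 features, and among the 5 comparisons of genotypes this one had the smallest spread, with 5th and 95th percentiles of -0.21 and 0.18 over all features. The members' median was 0.06 and that of all features 0.0038. The highest differences were at Pcdhac1 with 1.16 FPKM in WT and 1.58 in KO (0.41), Pcdhb4 with 1.16 and 1.48 (0.33), and Pcdha11 with 2.29 and 2.76 (0.26). The lowest were at Pcdhb6 with 1.07 and 0.861 (-0.29), Pcdha10 with 2.19 and 1.85 (-0.23) and Pcdhga1 with 3.60 and 3.10 (-0.21). Of the 9 members past the fold at E13.5, Pcdha12 had 4.28 and 4.80 FPKM here and Pcdhb7 had 3.67 and 3.77. The choroid plexus list summed to 241.0 FPKM in WT and 5.26 in KO, with 3 of its 3 genes that passed past the fold downward, while the neuron list summed to 2349 and 2384 and the neural progenitor list to 529.5 and 540.4.

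At P7 1 of 55 members was past the fold upward and 1 downward, beside 6.10% and 6.62% of 15956 features. Pcdhgc5 had 5.87 FPKM in WT and 9.53 in KO (0.69), a ratio of 1.62, and Pcdha1, the first alpha gene, had 1.96 and 1.30 (-0.56). Pcdhb14 with 2.38 and 2.88 (0.26) and Pcdha9 with 6.40 and 7.68 (0.26) came next above, and Pcdhga6 with 7.50 and 5.71 (-0.39) and Pcdhga10 with 6.81 and 5.47 (-0.31) below. Of the 22 gamma genes 17 lay below 0, with a median of -0.10 and a summed level of 192.2 FPKM in WT and 177.3 in KO. Over all features 51.6% lay above 0. Alpha members summed to 86.9 and 87.4 FPKM and beta members to 54.2 and 55.3. The other C-type genes were not past the fold. Pcdhgc3 had 49.8 and 42.2 FPKM (-0.24), Pcdhgc4 had 31.7 and 28.01 (-0.18) and Pcdhac2 had 24.0 and 23.9. The pooled whole brains also differed in lists of other cells. The neural progenitor list summed to 123.5 FPKM in WT and 82.6 in KO, the oligodendrocyte list to 522.5 and 344.2, the astrocyte list to 369.5 and 283.1, the cerebellar and hindbrain list to 48.2 and 28.5 with 4 of 5 genes past the fold downward, the serotonergic neuron list to 8.01 and 4.75 with 2 of 2 past it downward, the choroid plexus list to 453.7 and 309.4 with 2 of 4, and the neuron list to 3648 and 3507. Over the 5 cerebellar and hindbrain genes that passed, the median difference was -3.23, larger than the sums show. The part of all these lists in the members' values was not tested.

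**Figure D3:**
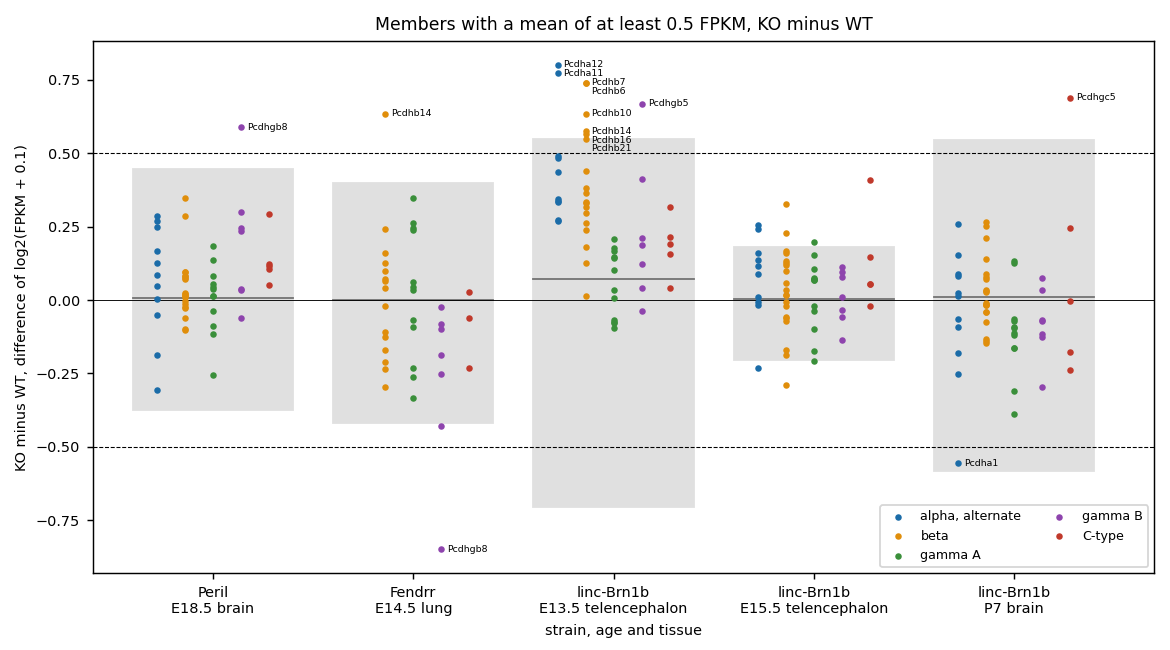
Difference between KO and WT in log2(FPKM + 0.1) (vertical axis) for every member that passed the minimum, by comparison (horizontal axis) and class (colour). Grey boxes span the 5th to 95th percentile of all features that passed, the grey line is their median, dashed lines mark 0.5 in either direction, and members past it are named. At E13.5 the alternate alpha and beta members lie above the median of all features, apart from Pcdhb9 at 0.01.

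Across members the levels of WT and KO kept much the same order. The correlation of log2(FPKM + 0.1) between genotypes over the 57 members on chromosome 18 had a Pearson's r of 0.992 in the Peril brain, 0.989 in lung, 0.989 at E13.5 and at P7, and 0.995 at E15.5. The points share their libraries and their locus, so these values only describe the tables. The differences between KO and WT showed little likeness between ages of the linc-Brn1b strain, with Spearman's rho of 0.13 for E13.5 against E15.5 over 52 members, 0.33 for E13.5 against P7 over 52 and 0.16 for E15.5 against P7 over 54.

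The linc-Brn1b table also allowed ages to be set side by side within a genotype. From E13.5 to E15.5 telencephalon in WT, 32 of 53 members, or 60.4%, were past the fold upward and 1 downward, beside 16.0% and 13.4% of 15148 features (21.6% and 17.3% at a mean of 0.5 to 10 FPKM), and their median difference was 0.67 beside 0.02 for all features. Of the 32, 3 passed the minimum only through the E15.5 value. In KO 22 of 53 were past it upward and 2 downward, beside 16.0% and 14.6% of 15228 features (16.6% and 19.0% at that level), with a median of 0.40 beside -0.04. These comparisons use the same E13.5 libraries as the comparison of genotypes at that age, so the lower counts in KO rest on the same E13.5 values as the differences between genotypes. The Y-linked sum also went from 49.2 to 0.0066 FPKM between these ages in WT and from 0.0133 to 21.0 in KO. With a pseudocount of 1 FPKM the upward counts were 21 in WT and 11 in KO, given without the share of all features and so not read against it.

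The alternate alpha genes had the largest age difference of the classes. All 10 that passed were past the fold upward in WT, from 0.99 at Pcdha2 to 1.58 at Pcdha10, which had 0.668 FPKM at E13.5 and 2.19 at E15.5, and all 10 were in KO as well, from 0.57 at Pcdha11 to 1.07 at Pcdha9. Their sum was 12.7 FPKM at E13.5 and 29.7 at E15.5 in WT, a ratio of 2.35, and 17.9 and 31.7 in KO, a ratio of 1.78. Beta genes had 15 of 19 past the fold upward in WT and 6 of 19 in KO, with ratios of summed FPKM of 1.75 and 1.32. Of those past the fold, Pcdhb12, Pcdhb14 and Pcdhb15 in WT and Pcdhb12 in KO were under 0.5 FPKM at E13.5, so they passed the minimum through the E15.5 value and had to differ to enter. Gamma A had 4 of 12 and 3 of 12, and gamma B had 1 of 7 in each, which was Pcdhgb1. Pcdhgc4 had the largest difference of the C-types, from 5.04 to 11.9 FPKM in WT (1.22) and from 5.76 to 12.4 in KO (1.09). Against the others, Pcdhgb8 went from 1.33 to 0.810 FPKM in WT (-0.65) and from 1.81 to 0.728 in KO (-1.20), and Pcdhgb5 went from 5.39 to 3.66 in KO (-0.55) but from 3.35 to 3.75 in WT (0.16).

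Between E15.5 telencephalon and P7 whole brain, where age and dissected region cannot be told apart, the clusters parted. In WT 26 of 55 members were past the fold upward, or 47.3%, and 5 downward, beside 30.2% and 33.0% of 15850 features (36.7% and 32.8% at a mean of 0.5 to 10 FPKM). In KO 25 were past it upward and 6 downward, beside 30.6% and 33.2% of 15747 features (36.3% and 32.3% at that level). The downward counts were 3 in each genotype with a pseudocount of 1 FPKM, given without the share of all features. All 13 alpha members that passed were past the fold upward in both genotypes. Pcdha1 had 0.291 FPKM at E15.5 and 1.96 at P7 in WT (2.40) and 0.390 and 1.30 in KO (1.52), and it passed the minimum through the P7 value. Pcdhac2 had 7.86 and 24.0 FPKM in WT (1.60), and Pcdha5, an alternate alpha gene, had 2.43 and 7.23 (1.53).

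All 20 beta members that passed lay above 0 in both genotypes, beside 46.6% of all features in WT and 46.8% in KO. Past the fold were 9 in WT and 10 in KO. Pcdhb12 had the largest beta difference, from 0.805 to 3.27 FPKM in WT (1.90) and from 0.793 to 3.34 in KO (1.95), while Pcdhb6 hardly differed in WT, at 1.07 and 1.08 FPKM (0.01). Pcdhb13, the next gene of the cluster after Pcdhb12, had 0.603 and 1.91 FPKM in WT (1.52), and Pcdhb14 after it had 0.885 and 2.38 (1.33).

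All 7 gamma B genes lay below 0 in both genotypes, while 46.6% of all features in WT and 46.8% in KO lay above 0. In each genotype 4 of the 7 were past the fold downward. Pcdhgb7 had 7.47 FPKM at E15.5 and 3.65 at P7 in WT (-1.01) and 7.16 and 3.49 in KO (-1.02), and Pcdhgb6 had 11.6 and 6.64 in WT (-0.79) and 11.7 and 6.12 in KO (-0.92). The class summed to 34.5 FPKM at E15.5 and 22.1 at P7 in WT, a ratio of 0.640, and to 34.9 and 20.7 in KO, a ratio of 0.593. Gamma A genes, which alternate with gamma B genes along the same cluster, had 2 of 12 past the fold upward and 1 downward in WT, with Pcdhga8 highest at 3.78 and 6.14 FPKM (0.69) and Pcdhga4 lowest at 7.74 and 5.04 (-0.61). Their sum was 73.7 and 82.8 FPKM in WT. In KO 0 gamma A genes were past the fold upward and 1 downward, and their sum was 75.3 and 77.0 FPKM.

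The C-type genes other than Pcdhgc3 were higher at P7 in both genotypes. Pcdhgc5 had 1.65 and 5.87 FPKM in WT (1.77) and 1.63 and 9.53 in KO (2.48). Pcdhgc4 had 11.9 and 31.7 in WT (1.40) and 12.4 and 28.01 in KO (1.17). Pcdhac1 had 1.16 and 2.00 in WT (0.74) and 1.58 and 2.39 in KO (0.57). Pcdhgc3 had 57.9 and 49.8 in WT (-0.22) and 60.1 and 42.2 in KO (-0.51). Together the 5 genes summed to 61.8, 80.4 and 113.3 FPKM in WT at E13.5, E15.5 and P7, and Pcdhgc3 supplied 79.1%, 71.9% and 44.0% of that sum.

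**Figure D4:**
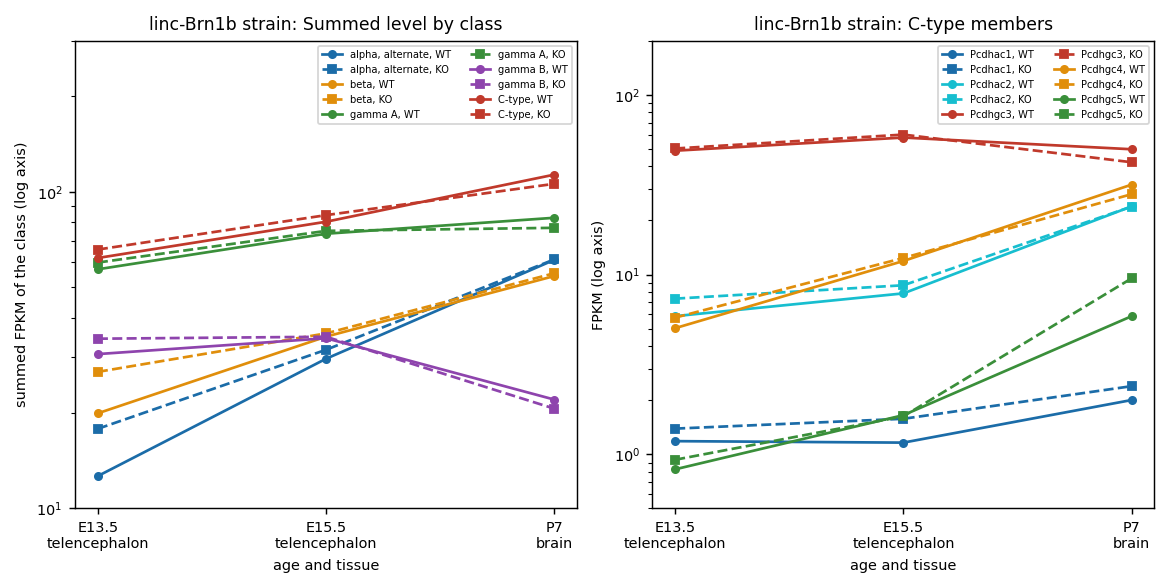
Levels at 3 ages of the linc-Brn1b strain, as summed FPKM of each class (left) and FPKM of each C-type member (right), on log axes with solid lines and circles for WT and dashed lines and squares for KO, 1 pooled value per point. At P7 the gamma B sum lies at 22.1 and 20.7 FPKM, under its E15.5 values, and the alternate alpha sum at 61.0 and 61.2, above them.

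The order of the members by age difference was alike in the 2 genotypes, while the size from E13.5 to E15.5 was not. The genotypes share no libraries but share the locus and the normalization. Over 53 members the differences from E13.5 to E15.5 had a Spearman's rho of 0.81 and a Pearson's r of 0.81 between WT and KO, with 22 members past the fold upward in both and 1 downward in both. From E15.5 to P7 the values were 0.96 and 0.95 over 55 members, with 23 upward in both and 3 downward in both.

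**Figure D5:**
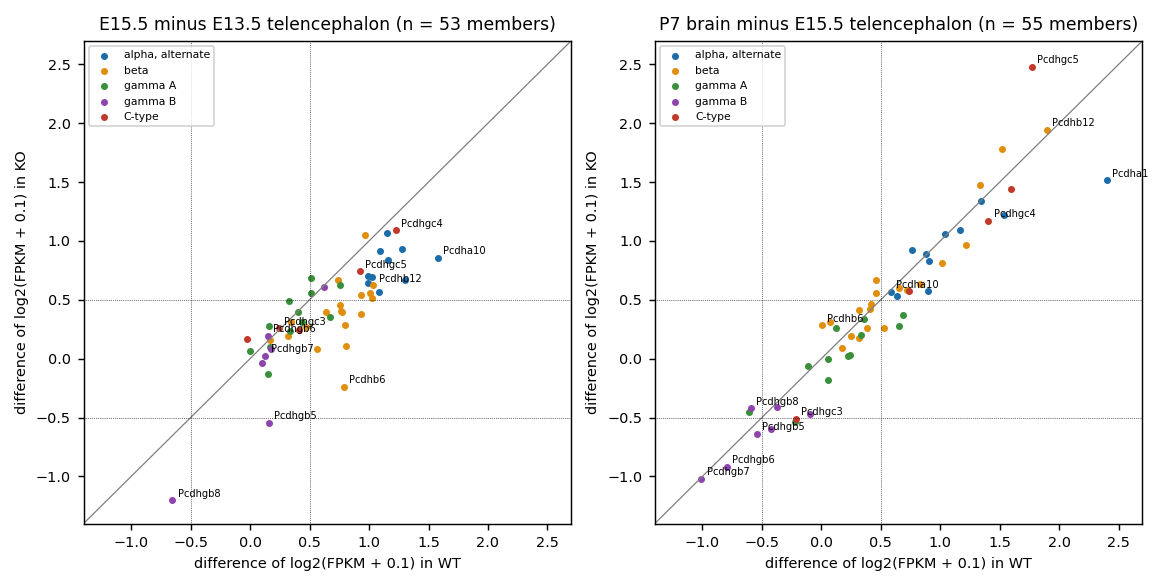
Age difference in log2(FPKM + 0.1) of each member that passed in both genotypes, in WT (horizontal axis) and KO (vertical axis), for E15.5 minus E13.5 (left, 53 members) and P7 minus E15.5 (right, 55 members), coloured by class. Dotted lines mark 0.5 in either direction and the diagonal marks equal differences. Pcdhb6 and Pcdhgb5 lie below the diagonal on the left, and Pcdhgc5 above it and Pcdha1 below it on the right.

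The neuron and progenitor lists moved with age too. The neuron list summed to 1510, 2349 and 3648 FPKM in WT at E13.5, E15.5 and P7, with 6 of 7 genes past the fold upward from E13.5 to E15.5 and 5 of 7 from E15.5 to P7. The neural progenitor list summed to 925.8, 529.5 and 123.5 FPKM, and the astrocyte list to 36.8, 50.2 and 369.5. The list for serotonergic neurons, which have their cell bodies in the brainstem and so outside the telencephalon, summed to 0.286, 0.264 and 8.01 FPKM over 3 genes, and the cerebellar and hindbrain list to 5.47, 7.66 and 48.2. In KO the cerebellar and hindbrain list summed to 8.67, 10.3 and 28.5 FPKM at the same ages. The part of all these lists in the members' age differences was not tested.

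The other genes of the pathway were taken from 4 lists. Of the 21 genes found that fold or silence the protocadherin clusters, 0 were past the fold between genotypes in all 5 comparisons among the 19 to 21 that passed. Over all features between 0.648% (E15.5) and 6.45% (E13.5) were past it upward, and between 0.907% and 8.77% downward. The counts of 0 were not tested against those shares. The median difference of these genes lay between -0.08 at P7 and 0.16 at E13.5. From E13.5 to E15.5 5 of 20 were past the fold downward in WT, beside 13.4% of all features, and 13 of 20 in KO, beside 14.6%, and 0 upward in either. From E15.5 to P7 in WT 16 of 20 were past the fold downward and 1 upward, beside 33.0% and 30.2% of all features. Ctcf, which loops enhancers to protocadherin promoters, had 51.9 and 21.9 FPKM (-1.24), the cohesin subunits Smc3 and Rad21 had 44.5 and 18.1 (-1.30) and 98.0 and 58.2 (-0.75), and Trim28, a corepressor, had 139.9 and 52.3 (-1.42). Dnmt3b, the DNA methyltransferase that acts on alternate promoters, had 1.22 and 0.507 (-1.12), and Dnmt3a was the 1 gene past the fold upward, at 21.2 and 37.6 (0.82). Smchd1, a silencing protein that keeps protocadherin promoters repressed, had 18.4 and 8.40 (-1.12).

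Non-clustered protocadherins, which lie outside the 3 clusters, gave 13 genes. Between genotypes Pcdh12, an endothelial member, was past the fold downward in the Peril brain at 1.62 and 1.02 FPKM (-0.62), and Pcdh1 in lung at 19.8 and 13.54 (-0.55). Pcdh7 was past it upward at E13.5 at 4.83 and 7.37 (0.60), and Pcdh1 and Pcdh20 at P7 at 28.5 and 53.0 (0.89) and 2.80 and 4.97 (0.81), while 0 of 13 were at E15.5. In lung 9 of the 13 passed the minimum. Over all features 2.96% were past it downward in the Peril brain and 3.41% in lung. Upward it was 6.45% at E13.5 and 6.10% at P7. These few counts were not tested against those shares. From E15.5 to P7 in WT 8 of 13 were past the fold upward and 0 downward, beside 30.2% and 33.0% of all features, with Pcdh11x at 2.42 and 12.2 (2.29) and Pcdh9 at 9.34 and 32.5 (1.79).

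Of the 24 genes found for protocadherin partners, 0 were past the fold between genotypes in all 5 comparisons among the 22 to 24 that passed. Over all features the shares ran from 0.648% at E15.5 to 6.45% at E13.5 upward, and from 0.907% to 8.77% downward. A count of 0 among so few genes was not tested against those shares. Ptk2b and Ptk2 are the focal adhesion kinases Pyk2 and FAK, which protocadherins restrain, and from E15.5 to P7 in WT Ptk2b had 1.08 and 24.2 FPKM (4.37) while Ptk2 had 42.0 and 25.6 (-0.71). Among the WAVE regulatory complex genes that link protocadherins to actin, Wasf1 had 48.1 and 80.1 (0.73) and Wasf2 had 7.43 and 4.32 (-0.77). Over that list 9 of 24 were past the fold upward and 5 downward, beside 30.2% and 33.0% of all features, so the upward share was near the background.

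Of the 16 classical cadherins and catenins, 14 to 16 passed, and the number past the fold between genotypes was 1 in the Peril brain (Cdh1 downward), 2 in lung (Cdh13 and Ctnna2 upward), 2 at E13.5 (Cdh13 upward and Cdh5 downward), 0 at E15.5 and 1 at P7 (Cdh1 downward). Over all features 2.96% were past it downward in the Peril brain, 8.77% at E13.5 and 6.62% at P7. Upward it was 3.65% in lung and 6.45% at E13.5. These few counts were not tested against those shares. From E15.5 to P7 in WT 7 of 15 were past it upward and 4 downward, beside 30.2% and 33.0% of all features. Cdh2, the neural N-cadherin, had 123 and 51.1 FPKM (-1.27).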

How the data were processed

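Tissue RNA was sequenced from 21 libraries in 10 groups. From the labels and the study's methods, the authors made mRNA libraries with a TruSeq kit, aligned reads to mm9 with TopHat2 and quantified genes with Cufflinks 2.0.2 and Cuffdiff2. They deposited 3 tables of FPKM with libraries pooled by group, 10 columns in all, and 0 other per-sample columns. In the linc-Brn1b table the first value of a pair belongs to the second-named group, checked over 15 comparisons, and the same order was assumed for the other 2 tables. The tables also hold the authors' log2 fold changes, test statistics, p-values, q-values and significance calls, which were not used, whereas the status column was.

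Computed here, with Python 3.11.15, numpy 2.4.6 and pandas 2.3.3, were differences of log2(FPKM + 0.1) for features with a mean of at least 0.5 FPKM, counted at 0.5 or more in either direction across the whole table. The counting was tested on simulated data. With 1 pooled value per group no test or interval could be computed here, and the depth is unknown. Symbol order along the cluster came from a RefSeq table of GRCm38.p6, used for order alone, and intervals from GENCODE of mm9.

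Named genes were the C-type members, the 3 highest and 3 lowest differences in each comparison of genotypes, the 2 highest members of each cluster in each table, and the genes of 4 pathway lists. Other members were named after their values were seen. Members and lists were chosen with earlier results of these data known. Lists found 21 of 22, 13 of 14, 24 of 25 and 16 of 16 genes. Alternatives were other pseudocounts, minimum levels and thresholds, rows with status OK, centring on the median, and leaving out the highest member. No sequences of these genes are shown.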

Additional observations from a re-analysis of the deposited data

How the results depend on the processing

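No paired analysis was possible because each table holds 1 pooled value per group, and for the same reason no library could be left out. Leaving out rows that share a locus leaves the row named Pcdhb11, listed at 0, and so gives no value. All 27 summary values (members higher, members lower and the median difference, in 9 comparisons) were within 1.5 times the main count, or 0.1 of the main median, with rows of status OK, with a pseudocount of 0.01 FPKM, with centring on the median of all features and, added after the values were seen, with features of 0.5 to 10 FPKM.

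With a pseudocount of 1 FPKM the members higher were 0 in the Peril brain, 0 in lung and 3 at E13.5 (median 0.16), and the members lower were 0 at P7. Of all features 1.68% were higher in the Peril brain, 1.86% in lung and 2.64% at E13.5. The other counts with this pseudocount are given without the share of all features, and so are not read against it. From E13.5 to E15.5 it gave 21 higher, 0 lower and a median of 0.43 in WT, and 11, 1 and 0.28 in KO. From E15.5 to P7 it gave 3 lower and a median of 0.30 in WT, and 3 lower and 0.31 in KO.

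With a threshold of 1 no member was past the fold in any comparison of genotypes, with 0 higher in the Peril brain, 0 higher and 0 lower in lung, 0 higher at E13.5, and 0 higher and 0 lower at P7. Few features passed it at all, with 0.909% higher in the Peril brain, and 1.22% higher and 0.804% lower in lung. The other counts with this threshold are given without the share of all features, and so are not read against it. From E13.5 to E15.5 it left 12 higher and 0 lower in WT and 3 higher and 1 lower in KO, and from E15.5 to P7 13 higher and 1 lower in WT and 11 higher and 1 lower in KO.

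Without the highest member of each cluster the summed level moved most, as a proportion of the sum, in lung. In WT it went from 2.49 to 0.626 FPKM for alpha and from 94.2 to 37.1 for gamma, and in KO from 2.24 to 0.668 and from 92.8 to 34.7.

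Without a minimum level 1 member was lower in the Peril brain and 3 were higher in lung, beside 5.66% and 6.56% of all features. With a minimum of 1 FPKM 5 were higher at E13.5, given without the share of all features. The cause was not tested. Each pooled value hides the spread between its libraries, so a difference near 0.5 in a member near 1 FPKM was not set against that spread.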
